A study of Mus musculus with 4 samples.

Results

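Red blood cell barcodes are the droplets of a hippocampal single-cell experiment whose RNA is mostly hemoglobin message. They were selected on measured values: every deposited barcode, with no filter on gene number, in which over 50% of UMIs (counted RNA molecules) came from the 4 globin genes Hba-a1, Hba-a2, Hbb-bs and Hbb-bt. There were 190 such barcodes among 6464, and the remaining 6274 are called other barcodes. The 4 libraries each came from the dissociated hippocampi of 1 male mouse aged 3 months on C57BL/6J, killed by cervical dislocation. In 2 libraries the mouse was Dp(10)2Yey, hemizygous for a duplicated stretch of chromosome 10 that matches part of human chromosome 21, and in 2 it was a wild-type (WT) littermate. 1 mouse of each genotype was prepared on each of 2 days, but the labels do not pair the replicate numbers by day. The libraries are written WT 1, WT 2, Dp 1 and Dp 2, and values are given in that order.

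Red blood cells carry oxygen on hemoglobin, a tetramer of alpha and beta globin chains that each hold a heme. In mammals they lose their nucleus as they mature, and the young reticulocyte that leaves the marrow still holds messenger RNA, ribosomes and mitochondria, which it then clears. In brain tissue these cells belong to blood held in vessels, and are no cell type of the hippocampus itself.

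WT 1 held 13 red blood cell barcodes among 1039, or 1.25% (exact 95% confidence interval 0.668% to 2.13%). WT 2 held 22 among 1708, or 1.29% (0.809% to 1.94%), and Dp 1 held 18 among 1372, or 1.31% (0.779% to 2.07%). Dp 2 held 137 among 2345, or 5.84% (4.93% to 6.87%). These intervals cover counting error alone. Dp 2 stood apart from the other 3 libraries, whose intervals overlap, and it supplied most of the 190 barcodes, so results are also given without it. The WT libraries averaged 1.27% ± 0.0261 (SD, n = 2), and the Dp(10)2Yey libraries 3.58% ± 3.20 (SD, n = 2). The difference of 2.31 points had p = 0.33 in a two-sided exact permutation test, which is the smallest p that 2 libraries against 2 can give. Without Dp 2 the difference was 0.0423 points and without Dp 1 it was 4.57 points, so it rested on 1 mouse. No barcode sequence among the red blood cell barcodes occurred in more than 1 library, and 8 did so among all barcodes.

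**Figure D1:**
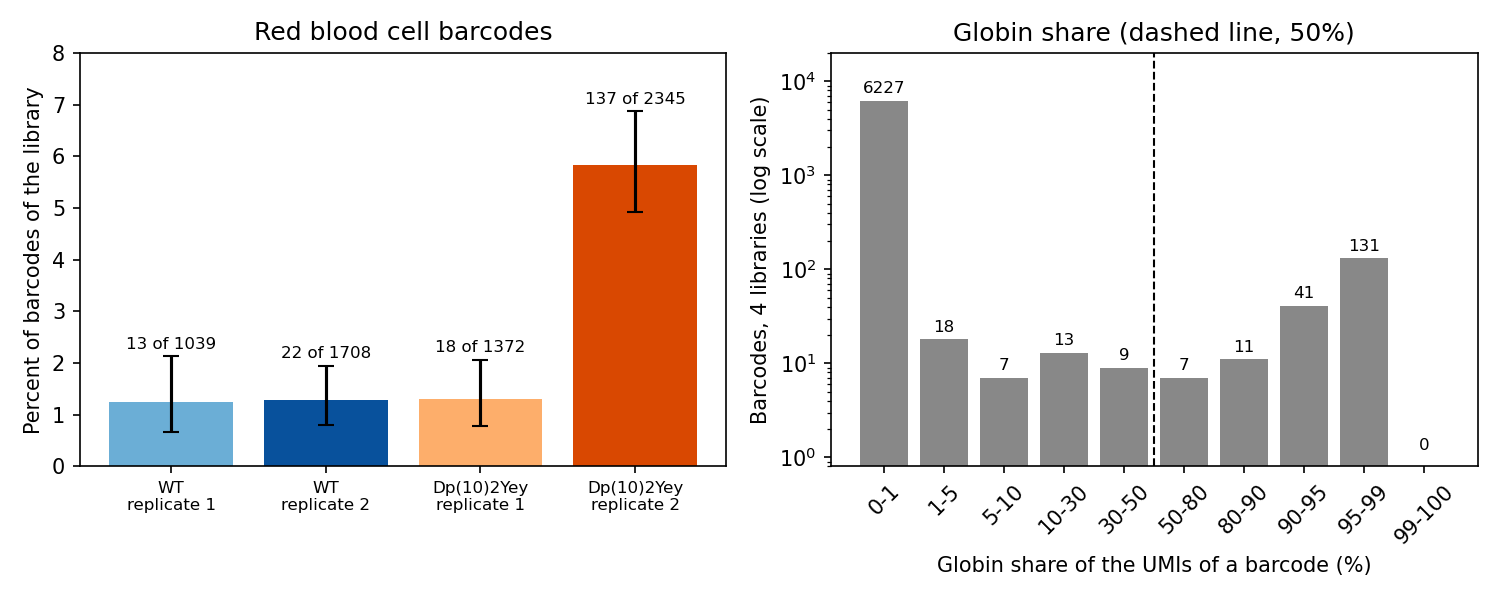
Left, the percent of each library's barcodes with over 50% of UMIs from the 4 globins, with exact 95% confidence intervals and counts; Dp(10)2Yey replicate 2, at 5.84%, lies above the other 3 libraries, at 1.25% to 1.31%. Right, the number of barcodes of all 4 libraries (log scale) in each range of globin share in percent, with 131 barcodes between 95% and 99% and 9 between 30% and 50%.

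The globin share chose these barcodes, so its values are a description. The median share per barcode was 96.0%, 94.2%, 96.1% and 96.9%, and over all 190 barcodes it ran from 55.0% to 98.8%. Few barcodes lay near the threshold: 131 of the 190 were between 95% and 99%, 41 between 90% and 95%, 11 between 80% and 90% and 7 between 50% and 80%. The nearest inside had 55.0% and 56.4%, and the nearest outside 43.2% and 42.4%. Between 10% and 50% there were 22 barcodes (9, 2, 1 and 10), while 6227 barcodes had at most 1%. Red blood cell barcodes held 1.16%, 1.35%, 1.75% and 7.44% of the UMIs of their libraries, which totalled 3002546, 6848466, 5112759 and 9612011. They held 77.1%, 88.2%, 95.1% and 97.2% of all globin UMIs. In the sum of the other barcodes the 4 globins made up 0.331%, 0.172%, 0.0868% and 0.219% of UMIs. Most of that lay in the 22 barcodes between 10% and 50%, with 95.2%, 83.9%, 81.2% and 85.1% of the globin UMIs of other barcodes, and in Dp 1 this was a single barcode. Only 8.87%, 11.1%, 12.9% and 38.5% of the other barcodes held any globin UMI.

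These barcodes had very few genes for their UMIs. Their median UMI number was 1893, 2614, 3571 and 4477, against 2059, 3688.5, 3384.5 and 3672 in other barcodes. Their median gene number was 39, 70.5, 67.5 and 68, against 1019, 1535.5, 1463.5 and 1558. Only 17 of the 190 (1, 2, 4 and 10) reached 200 genes, the minimum the study set for a cell. The study also took out clusters high in Hba-a1 as red blood cells, and which of these 17 they held is not given in the files. The UMIs left after removing the globins had a median of 69, 173, 130.5 and 120 per barcode and summed to 1660, 5110, 5437 and 28505 per library. This remaining RNA of 40712 UMIs is what the rest of the text describes, and 16052 of them (39.4%) came from the 17 barcodes with 200 or more genes. Across the barcodes of a library, which share their preparation and differ in depth, globin UMIs and other UMIs had a Spearman correlation of 0.547, 0.657, 0.476 and 0.783 (n = 13, 22, 18 and 137).

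The markers of red blood cells were checked first. Alas2, the erythroid enzyme for the first step of heme synthesis, was not used to choose the barcodes and serves as an independent marker. It had 14, 74, 55 and 633 UMIs in the red blood cell barcodes of the 4 libraries, where 145 of 190 barcodes (7, 14, 12 and 112) held at least 1. In the 6274 other barcodes it had 52 UMIs in all. Per 1000000 UMIs other than globin (CPM), its level was 8434, 14481, 10116 and 22207 in red blood cell barcodes and 4.39, 1.78, 0.797 and 2.59 in other barcodes. The label therefore matches its markers, for the pooled barcodes of every library. All 4 globins were seen in 13, 20, 18 and 137 barcodes, and the 20 of WT 2 compare with its 22 barcodes.

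The stretches of 100 bases upstream of the RefSeq starts of these 5 genes are shown because the genes are the markers that appear together in the same droplets, and because the alpha genes are near copies. They are RefSeq promoter sequences of build GRCm38.p6, written 5′ to 3′ along the gene's strand. GENCODE places the starts of these genes further upstream, so each window lies within or overlaps its gene there. Capitals mark the CCAAT box, the CACCC box, the TATAA box and the GATAA motif, each searched on both strands.
Hba-a1 (chr11:32283572-32283671, + strand): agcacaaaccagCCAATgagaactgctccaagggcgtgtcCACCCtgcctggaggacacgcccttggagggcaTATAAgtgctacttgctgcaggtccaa
Hba-a2 (chr11:32296392-32296491, + strand): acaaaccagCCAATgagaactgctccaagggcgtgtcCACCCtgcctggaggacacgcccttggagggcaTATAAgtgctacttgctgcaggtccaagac
Hbb-bs (chr7:103827929-103828028, - strand): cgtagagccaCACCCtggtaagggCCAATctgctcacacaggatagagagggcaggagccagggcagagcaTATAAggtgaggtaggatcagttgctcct
Hbb-bt (chr7:103813924-103814023, - strand): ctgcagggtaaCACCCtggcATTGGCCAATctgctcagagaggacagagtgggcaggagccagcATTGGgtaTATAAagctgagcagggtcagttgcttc
Alas2 (chrX:150547317-150547416, + strand): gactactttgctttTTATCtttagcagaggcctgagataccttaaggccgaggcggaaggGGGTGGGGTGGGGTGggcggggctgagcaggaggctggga
The CCAAT, the CACCC and also the TATAA box occur in all 4 globin windows, with 3 copies of CCAAT in Hbb-bt, counting both strands. The Alas2 window holds 3 copies of CACCC and 1 of GATAA, and no TATAA or CCAAT. In the full promoter windows of 300 bases, TATAA occurred in 24.9% of 32851 RefSeq promoters, CCAAT in 37.4%, CACCC in 57.5% and GATAA in 25.4%. A match in letters is a description of the sequence and not a site of binding. The Hba-a1 and Hba-a2 windows were identical over 97 aligned bases, and those of Hbb-bs and Hbb-bt over 73 of 99. Among the transcripts, the alpha pair differed at 1 of 538 aligned bases, and the beta pair at 43 of 621. UMIs of the alpha genes can therefore not be assigned to one copy with certainty, while the beta genes can be told apart more readily.

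Hbb-bs, the adult beta chain gene with most message, had 16384, 42703, 40473 and 351039 UMIs in the red blood cell barcodes. Hbb-bt, its neighbour on chromosome 7, had 1953, 7546, 6718 and 53545. For the alpha chains, Hba-a1 had 8220, 21059, 20779 and 161128 UMIs, and Hba-a2 had 6574, 15746, 16229 and 121040. Hbb-bs led, Hbb-bt was least, and the order of the 4 genes was the same in every library. The rule used the sum of the 4 globins and not the split among them.

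Beta chains made up 55.3%, 57.7%, 56.0% and 58.9% of globin UMIs in the red blood cell barcodes, or 1.24, 1.37, 1.28 and 1.43 beta UMIs per alpha UMI. The WT mean was 56.5% ± 1.68 (SD, n = 2) and the Dp(10)2Yey mean 57.5% ± 2.03 (SD, n = 2), and the difference of 0.946 points had p = 0.67 (exact permutation test, two-sided). The values of the 2 genotypes overlap, and the difference was -0.242 points without WT 1 and -0.487 points without Dp 2. In the other barcodes, whose globin UMIs came mostly from the 22 barcodes named above, beta chains made up 60.8%, 60.3%, 58.8% and 62.2%. The mean difference was -3.51 points (SD 1.35, n = 4; 4 of 4 libraries), with p = 0.125 in a two-sided exact paired permutation test, the smallest p that 4 pairs can give. In the other barcodes with at most 10% globin, a comparison chosen after seeing the data, the share was 50.2%, 50.1%, 60.9% and 58.6%, and the difference was 2.08 points (exact paired permutation p = 0.375, n = 4). The direction therefore rested on those 22 barcodes.

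Hbb-bt made up 10.7%, 15%, 14.2% and 13.2% of beta chain UMIs in the red blood cell barcodes and 9.94%, 13.1%, 7.84% and 9.43% in the other barcodes. The difference was 3.20 points (SD 2.49, n = 4; 4 of 4 libraries; exact paired permutation p = 0.125), or 2.13 points without Dp 1, where 1 barcode held 3542 of the 4362 globin UMIs of other barcodes. With the threshold at 30% it was -1.24 points. Against other barcodes with at most 10% globin, where the share was 8.47%, 14.0%, 19.4% and 7.51%, it was 0.918 points (exact paired permutation p = 0.625, n = 4) and negative in Dp 1. No direction is thus given for this share. Hba-a1 made up 55.6%, 57.2%, 56.1% and 57.1% of alpha chain UMIs, against 58.2%, 57.7%, 56.9% and 57.4%. The alpha split was thus close to even in both classes, within the limits of telling these copies apart.

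Within the red blood cell barcodes, the pooled Hbb-bt share hid a wide spread. Per barcode it ran from 0% to 26.6% of beta chain UMIs, with medians of 3.63%, 5.24%, 7.93% and 8.88%. Ranges of this share were set after its values were seen, so the following is a description with no test. Below 5% there were 82 barcodes (8, 11, 7 and 56), with a median of 1762.5 globin UMIs and 81 other UMIs. At 10% or more there were 81 barcodes (3, 9, 8 and 61), with a median of 7521 globin UMIs and 198 other UMIs. Only 27 barcodes (2, 2, 3 and 20) lay between these ranges. The barcodes with a low Hbb-bt share were thus the ones with less globin message, in each library: their median globin UMI number was 1659.5, 1276, 1455 and 1911.5, against 3316, 7252, 7361 and 8114 at 10% or more.

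Alas2 message also differed between the low and the high range. Of the 82 barcodes below 5%, 39 held no Alas2 UMI, against 1 of the 81 at 10% or more. Since depth differs, Alas2 was also counted per 10000 globin UMIs, which gave 3.01, 3.79, 3.15 and 7.28 in the low range and 6.23, 9.99, 7.71 and 9.42 in the high range. The high range was above the low range in all 4 libraries, and the gap was narrowest in Dp 2. The middle range did not lie between them in every library, with 1.84, 5.72, 3.23 and 10.9. Across the barcodes of a library the Hbb-bt share and globin UMIs had a Spearman correlation of 0.445, 0.865, 0.707 and 0.778 (n = 13, 22, 18 and 137). With Alas2 per globin UMI the Hbb-bt share had 0.523, 0.615, 0.775 and 0.310. The points of each correlation share a library, a total of globin UMIs that enters both measures, and sparse Alas2 counts with medians of 1, 1.5, 2.5 and 3 per barcode.

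**Figure D2:**
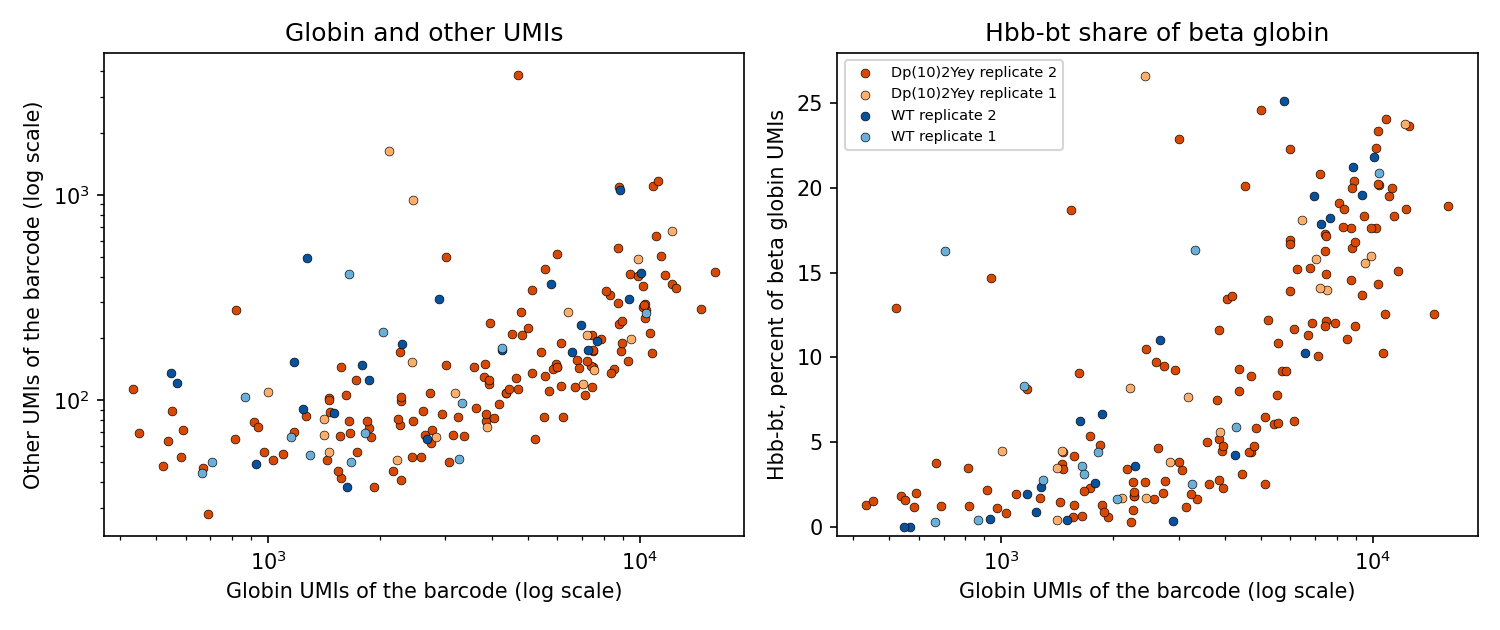
Each point is 1 of the 190 red blood cell barcodes, coloured by library, with globin UMIs on the horizontal axis (log scale). Left, UMIs other than globin (log scale), which ran from 28 to 3845; right, Hbb-bt as a percent of beta globin UMIs, which ran from 0% to 26.6% and had a median of 7521 globin UMIs among the barcodes at 10% or more.

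The remaining RNA was compared with that of other barcodes as 2 sums per library, with the globins removed and the library as a block. Of 10053 genes tested with edgeR, 82 (0.816%) were higher and 25 (0.249%) lower in red blood cell barcodes at an adjusted p under 0.01, and 1884 had an unadjusted p under 0.05. All 25 lower genes were lower in 4 of 4 libraries, and 40 of the 82 higher genes were higher in 4 of 4. The 2 counts cannot be compared, since 13 of the lower genes had no UMI in red blood cell barcodes. For those 13 the zeros fixed the agreement between libraries. The sums were sparse: 5335 of the tested genes had no UMI in red blood cell barcodes, and over all tested genes the median log2 fold change was -7.80 (0.70 with those genes at the bound that 3 counts allow). DESeq2 called 80 higher and 54 lower, sharing 65 and 24 with edgeR, and RLE size factors called 98 and 67, among them all of the 82 and 25. Scaling by total UMIs called 106 and 38, also with all of the 82 and 25. Relative to TMM the median fold change of genes with a UMI in these barcodes moved by 0.23 with total scaling, -0.14 with RLE and 0.55 with DESeq2.

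The balance between higher and lower calls depended on Dp 2. Without it, 24 genes were higher and 58 lower, with 24 and 14 shared with the full set, and the median fold change moved by -2.16. With total scaling and Dp 2 left out, 52 were higher and 4 lower. Leaving out WT 1, WT 2 or Dp 1 gave 69, 55 and 82 higher genes and 8, 3 and 4 lower genes. No gene was called in the opposite direction in any of these fits.

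The remaining RNA held many erythroid genes. Of 74 genes in 5 erythroid lists, 51 had a UMI in red blood cell barcodes, 52 could be tested, 23 were higher and 0 lower. Their median log2 fold change was 2.34, or 2.46 with unseen genes at their bound, beside -7.80 and 0.70 over all tested genes. Without Dp 2, 13 were higher and 1 was lower (Fth1, a ferritin subunit), and with total scaling and Dp 2 left out 22 were higher and 0 lower. Without WT 2, 17 were higher. The lists made up 8.49%, 14.3%, 12.8% and 19.2% of UMIs other than globin, against 1.66%, 1.79%, 1.83% and 1.84% in other barcodes. The share was above that of other barcodes in each library, with or without Dp 2.

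Heme synthesis and iron genes included 6 higher and 0 lower genes among 16 tested, and their median log2 fold change was -0.07 (2.36 with bounds). Alas2 had the largest change of the list, with log2 fold change 12.10 ± 0.90 (SE; adjusted p = 2.0e-37; higher in 4 of 4 libraries). Slc25a37, the mitoferrin that carries iron into mitochondria, was at 1205, 1566, 2207 and 1789 CPM in red blood cell barcodes, against 20.9 to 31.8 in other barcodes. Its log2 fold change was 5.54 ± 0.67 (adjusted p = 9.26e-14). Fech, ferrochelatase, which inserts iron into heme at the last step, had 1, 14, 3 and 66 UMIs and a log2 fold change of 5.03 ± 0.74 (adjusted p = 3.53e-09). So the first and last enzymes of the pathway were both present, with an iron importer. Of enzymes between them, Alad, Uros and Cpox had no UMI, Ppox had 1 and Urod had 7. Ftl1, the ferritin light chain, had 19, 96, 80 and 765 UMIs and rose by 2.41 ± 0.60 (adjusted p = 0.00661), which did not pass without WT 2, Dp 1 or Dp 2 (adjusted p = 0.389, 0.0460 and 0.385). Fth1, the heavy chain, had 462 UMIs and a log2 fold change of -0.76 (adjusted p = 0.416), so the ferritin chains differed in outcome; their difference was not tested. Tfrc, the receptor that takes up iron in erythroid precursors, had no UMI.

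Beyond the adult chains, Hbq1a, a theta globin gene of the alpha cluster on chromosome 11, had 3, 1, 4 and 14 UMIs in red blood cell barcodes and 0 in other barcodes. It was at least 4251-fold higher, counting 3 UMIs over the 4 libraries as the floor for other barcodes. Its neighbouring copy Hbq1b had 0, 1, 2 and 8 UMIs, also with 0 elsewhere, and was too sparse to test. The embryonic globins Hba-x, Hbb-y, Hbb-bh1 and Hbb-bh2 had no UMI. The globin message was thus of the adult kind, with a trace of theta globin.

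Among red cell enzymes, 5 of 9 tested were higher and 0 lower (median log2 fold change 2.57). Bpgm makes the bisphosphoglycerate that lowers the oxygen affinity of hemoglobin. It had 13, 89, 64 and 432 UMIs, or 7831, 17417, 11771 and 15155 CPM against 88.6, 122, 115 and 104 in other barcodes. Its log2 fold change was 6.30 ± 0.71 (adjusted p = 3.47e-16; 4 of 4 libraries). Gpx1, a peroxidase that removes hydrogen peroxide, had 4, 49, 59 and 363 UMIs and a log2 fold change of 4.48 ± 0.69 (adjusted p = 1.92e-08). Blvrb, Hagh and Cat, a reductase, a glyoxalase and catalase, were the other higher genes, each with no UMI in WT 1. Without Dp 2, Hagh (1.95; adjusted p = 0.322) and Cat (1.75; adjusted p = 0.510) did not pass, and without WT 2 they had adjusted p = 0.0426 and 0.0109. Prdx2, an abundant red cell antioxidant, had 110 UMIs and did not pass (2.27; adjusted p = 0.0421). The carbonic anhydrase Car2 had 0, 2, 14 and 82 UMIs and a change of -0.15, and Car1 and Pklr had none. Bpgm and Gpx1 were thus seen in every library. Glycolytic Gapdh and Aldoa had 16 and 9 UMIs and did not pass in either direction (edgeR, adjusted p = 0.202 and 0.373).

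Message for the membrane was sparse. Of 19 membrane and skeleton genes, 11 had a UMI, 5 could be tested and 1 was higher. That gene, Epb41, which ties spectrin and actin to the membrane, had 5, 8, 12 and 75 UMIs and a log2 fold change of 6.05 ± 0.69 (adjusted p = 1.21e-15). Slc4a1, the anion exchanger of the red cell membrane, had 0, 4, 2 and 11 UMIs. It was too sparse to test, yet in other barcodes it stayed under 1 CPM. Ank1, Rhag, Kel and Aqp1 had no UMI. Erythroid transcription factors were nearly absent: Gata1, Tal1, Zfpm1, Gfi1b and Bcl11a had no UMI, Klf1 and Nfe2 had 1 each, and Lmo2 had 17. None of the 4 tested passed.

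Genes of reticulocyte maturation and protein turnover formed the largest higher group, with 11 of 18 tested higher, 0 lower and a median log2 fold change of 3.31. Without Dp 2, 5 were higher, and with total scaling and Dp 2 left out 12 were. Isg20, an RNA exonuclease, had 5, 17, 8 and 135 UMIs (9.0 ± 0.80; adjusted p = 8.12e-26). Ube2l6, a conjugating enzyme for ubiquitin and Isg15, had 4, 10, 18 and 129 (8.76 ± 0.79; adjusted p = 4.0e-25), and the ubiquitin ligase Mkrn1 had 10, 44, 56 and 396 (6.46 ± 0.72; adjusted p = 1.71e-16). Each of these stood far above its level in other barcodes in all 4 libraries. Map1lc3b and Gabarapl2, which coat the autophagosome, rose by 3.61 and 3.35, and Bnip3l, the receptor that marks mitochondria of reticulocytes for removal, by 3.12 (adjusted p = 1.78e-04). Ulk1, a kinase that starts autophagy, had 1 UMI and a change of 0.02 (adjusted p = 0.993). Without Dp 2 the 3 higher genes did not pass, at 2.52, 2.04 and 1.74 (adjusted p = 0.0195, 0.0929 and 0.271), and without WT 2 neither Gabarapl2 (adjusted p = 0.0531) nor Bnip3l (0.103) did. Fam46c, a poly(A) polymerase, rose by 5.24. Ubb, a polyubiquitin gene with 763 UMIs, just missed the threshold (2.31; adjusted p = 0.0103).

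**Figure D3:**
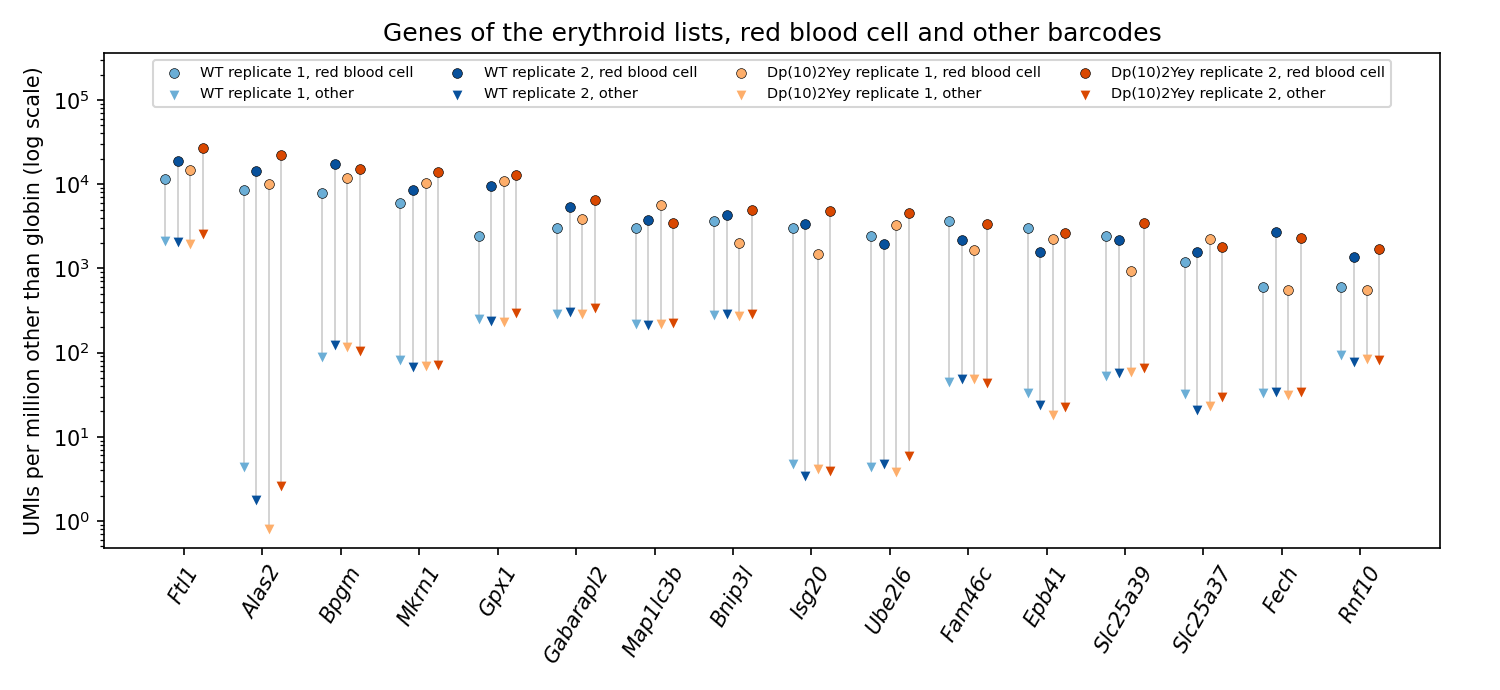
CPM, the UMIs per 1000000 other than globin (log scale), for 16 genes of the erythroid lists that were higher and had UMIs in both sums of every library, with circles for red blood cell barcodes and triangles for other barcodes, coloured by library and joined by lines. Every circle lies above its triangle, by ratios from 5.40 to 12690, the largest for Alas2.

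Outside these lists, several genes had changes as large. Rec114, a gene named for its part in meiotic recombination, had 3, 15, 9 and 61 UMIs against 62 in all other barcodes (log2 fold change 9.27 ± 0.79; adjusted p = 4.41e-28). The interferon-inducible gene Rsad2 had 2, 6, 8 and 34 UMIs (6.92 ± 0.61; adjusted p = 8.15e-27), and Fam220a 7, 42, 19 and 177 (6.75 ± 0.73). Gda, guanine deaminase, had 26 UMIs (5.55; without Dp 2, 3.74 with adjusted p = 0.101), and the unnamed gene Gm10371 had 10 (7.43). Sec61g, part of the channel through which proteins enter the endoplasmic reticulum, was among the 10 genes with most UMIs, at 21, 85, 55 and 499. Its level was 12651, 16634, 10116 and 17506 CPM against 399, 446, 383 and 462 (4.46 ± 0.65; adjusted p = 2.01e-09). All of these were higher in each of the 4 libraries, but for all except Sec61g that agreement was a condition for being named. Of 60 higher genes with a RefSeq promoter, 51.7% held CCAAT, 65.0% CACCC, 13.3% TATAA and 23.3% GATAA in 300 bases, against 42.8%, 67.2%, 15.1% and 18.4% of 7948 tested genes. The difference was not tested.

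Gm42418 had more UMIs than any other gene of the remaining RNA. It lies on chromosome 17 (chr17:39846958-39848788, + strand of GRCm38), where AY036118 overlaps it on the opposite strand (chr17:39847113-39848035). It had 397, 1181, 475 and 2446 UMIs, or 23.9%, 23.1%, 8.74% and 8.58% of UMIs other than globin, against 1.65%, 1.95%, 1.15% and 0.782% in other barcodes. Every one of the 190 barcodes held it. The mean gap was 14.7 points (SD 8.11, n = 4; exact paired permutation p = 0.125), and the log2 fold change was 2.86 ± 0.58 (adjusted p = 1.44e-04; 4 of 4 libraries), which did not pass without WT 2 (2.78; adjusted p = 0.308). AY036118 followed with 537 UMIs and a change of 2.39 (adjusted p = 0.00708), which did not pass without WT 2, Dp 1 or Dp 2 (adjusted p = 0.389, 0.0552 and 0.422). It was named after its values were seen. In the barcodes with 200 or more genes the TMM-fitted changes of these genes were -0.36 and -0.48. The Gm42418 share there was nevertheless 14.8%, 9.38%, 3.99% and 2.69%, above that of other barcodes in 4 of 4 libraries, by 6.34 points when those too had 200 or more genes (exact paired permutation p = 0.125, n = 4). In the barcodes with fewer genes it was 26.9%, 29.1%, 19.1% and 11.9%.

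Mitochondrial genes made up 20.2%, 10.8%, 9.82% and 9.51% of UMIs other than globin, against 6.44%, 6.85%, 7.17% and 4.12% in other barcodes. The share was higher in 4 of 4 libraries, by 6.43 points (SD 5.0; exact paired permutation p = 0.125, n = 4), or by 3.99 points without WT 1. No gene of the 13 passed the gene test in either direction (edgeR, median log2 fold change 0.39). The most abundant were mt-Atp6, mt-Co1 and mt-Co3, with 754, 707 and 672 UMIs. Cytosolic ribosomal protein genes made up 13.1%, 8.10%, 8.57% and 12.9%, against 11.8%, 10.9%, 11.4% and 11%, with p = 0.75 in the same exact test, and 0 of 83 tested genes passed. Rpl41 led with 570 UMIs and Rps29 followed with 384. UMIs of mitochondrial and ribosomal protein genes were thus counted beside the globins. How many of them came from RNA outside the red blood cells was not tested.

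Message of brain cells was low but not absent. Of 76 genes in 9 lists of brain cell types, 45 had a UMI in red blood cell barcodes, 70 could be tested, 8 were lower and 0 higher. Their median log2 fold change was -2.76, or -1.13 with unseen genes at their bound, beside -7.80 and 0.70 over all tested genes. With the threshold at 30%, 9 of these genes were higher and 15 lower. Without Dp 2, 12 were lower, and without WT 1, WT 2 or Dp 1 it was 4, 2 and 2. With total scaling 11 were lower, or 3 with Dp 2 left out, and 10, 7 and 10 without WT 1, WT 2 or Dp 1. How this count moved with the library left out thus depended on the scaling. The lists made up 1.02%, 2.13%, 4.30% and 3.44% of UMIs other than globin, against 7.04%, 6.94%, 7.24% and 7.48% in other barcodes.

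Several myelin genes were absent or low. Mal, a myelin membrane protein of oligodendrocytes, was at 1423, 1962, 1568 and 1328 CPM in other barcodes and had no UMI in red blood cell barcodes, at least 21.3-fold lower on the floor of 3 counts (adjusted p = 9.16e-07). Mag, the myelin-associated glycoprotein, and Ermn, which shapes the oligodendrocyte skeleton, also had none and were at least 8.62-fold and 6.42-fold lower. In all, 6 of 10 oligodendrocyte genes were lower. Tubb4a, Sept4, Enpp2 and Mapt, of the cell skeleton, of lipid signalling and of neuronal microtubules, had no UMI as well, with bounds of 8.07, 6.85, 6.61 and 4.21. Mal passed with each library left out. Mag and Tubb4a did not pass without WT 2 (adjusted p = 0.0243 and 0.0321) or Dp 1 (0.0119 and 0.0225), and Sept4, Enpp2, Ermn and Mapt did not pass without any 1 library, with adjusted p from 0.0112 (Sept4) to 0.125 (Mapt). Mbp had 69 UMIs and a change of -0.72 (adjusted p = 0.458), so myelin basic protein message was not shown to be lower.

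The other lists had few UMIs. Microglial genes had most, with 1035 UMIs, of which 645 were Cst3, a protease inhibitor, 83 C1qa and 64 C1qb; all 10 were seen and none of the 10 passed the test. Endothelial genes had 108 UMIs (Bsg 51, Cldn5 18, Ly6c1 11) and oligodendrocyte genes 109 (Mbp 69, Mobp 13). The endothelial share of UMIs other than globin was 0.663%, 0.157%, 1.18% and 0.0877%, against 0.264%, 0.213%, 0.148% and 0.184% in other barcodes. It was thus not lower in WT 1 and Dp 1, where 1 barcode held 10 of the 11 and 56 of the 64 endothelial UMIs. Astrocyte genes had 58 (Slc1a2 20, Aldoc 14, Clu 8), neuronal genes 17, oligodendrocyte precursor genes 8, choroid plexus genes 5 (all Ttr) and ependymal genes 1. Pericyte, platelet and lymphocyte genes had 0, and neutrophil genes had 1 UMI, from S100a9. The blood cells looked for besides red cells thus left next to nothing in these droplets. Genes of the dissociation response had 254 UMIs (Jund 78, Jun 51, Fos 27), with Egr1 lower (-3.81; adjusted p = 6.74e-04; without WT 2, -3.51 with adjusted p = 0.131) and none higher among 13 tested.

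The red blood cell barcodes with many genes differed from the rest in their pooled shares. In the 173 with fewer than 200 genes, erythroid lists made up 10.5%, 17.6%, 17.7% and 23.2% of UMIs other than globin and brain lists 0.561%, 0.926%, 1.64% and 1.58%, and 70 of them held no UMI of a brain list. In the 17 with 200 or more genes, the erythroid share was 2.43%, 6.66%, 10.6% and 12.1% and the brain share 2.43%, 4.92%, 5.52% and 6.71%. In the pooled sums, the barcodes with few genes were thus the more erythroid ones in every library. The class with 200 or more genes held only 1, 2, 4 and 10 barcodes, and these varied. In Dp 1, the barcodes with 204 and 245 genes had 126 and 227 erythroid UMIs among 487 and 668 other than globin. Each had 5 brain UMIs. In Dp 2, the barcode with 450 genes had 295 erythroid and 2 brain UMIs. Of the 17, 5 had more brain than erythroid UMIs, 4 of them led by microglial genes and 1 by endothelial genes. The barcode nearest the threshold, with 1796 genes, had 357 microglial and 60 erythroid UMIs. Another, with 780 genes, had 136 and 26, and one with 623 genes had 56 endothelial and 16 erythroid UMIs. Among the 173 only 3 had more brain than erythroid UMIs. Whether those droplets held more than one cell was not tested.

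Malat1, a long noncoding RNA that stays in the nucleus, was looked at after its values were seen. It had 520 UMIs, of which 497 lay in 8 of the 17 barcodes with 200 or more genes and 23 in 20 of the 173 with fewer. Its level was 602, 24070, 34394 and 7332 CPM against 25732, 33964, 29392 and 40179 in other barcodes. In barcodes with fewer than 200 genes it had no UMI in WT 1 and made up 0.0561%, 0.0587% and 0.110% of UMIs other than globin in WT 2, Dp 1 and Dp 2. Malat1 was thus nearly missing from the barcodes with few genes and concentrated in a few of the others. With the 17 barcodes alone, 7 genes were higher and 0 lower, and with the 173 alone 43 were higher and 69 lower, or 117 and 156 with total scaling.

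**Figure D4:**
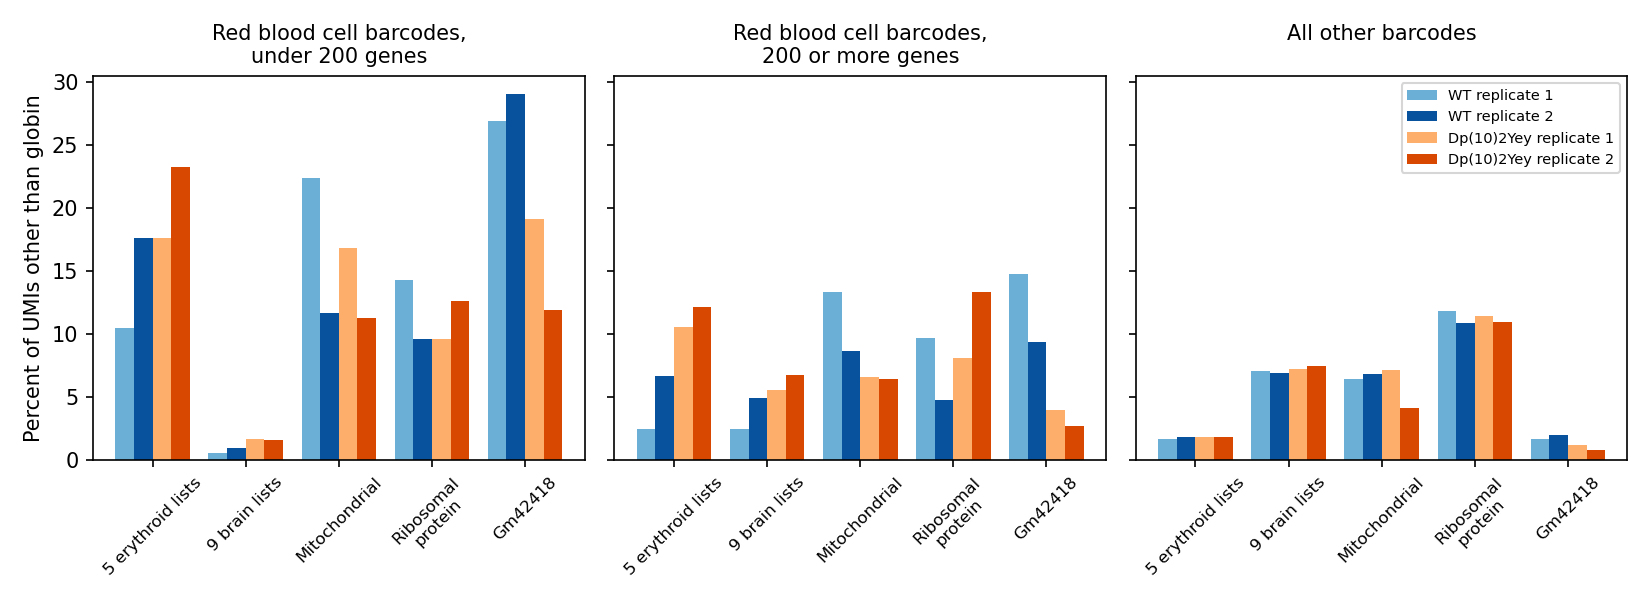
Percent of UMIs other than globin from the 5 erythroid lists, the 9 brain lists, mitochondrial genes, ribosomal protein genes and Gm42418, as bars by library. From left to right the panels show red blood cell barcodes with under 200 genes, those with 200 or more, and all other barcodes; the brain lists reach 1.64% in the first panel and 7.48% in the last.

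The genotypes were compared over the 4 library sums of red blood cell barcodes, with the mouse as the unit. Of 66 genes with enough UMIs to test, edgeR called 0 (0.0%) at an adjusted p under 0.01, 2 had an unadjusted p under 0.05, and DESeq2 called 0 with 3 under that value. The Dp(10)2Yey and WT values did not overlap for 16 of the 66 genes, 9 above and 7 below. With 2 libraries a group, such a separation has p = 0.33 in an exact permutation test. The count is therefore no sign of a genotype difference by itself. Alas2 and Bpgm differed by log2 0.35 and -0.01 (adjusted p = 0.952 and 0.980). A paired fit with replicate number as a block called 0 genes, and so did one with the numbers crossed. Genes of the duplicated segment had only 39 UMIs in all red blood cell barcodes, 13 of them from S100b, and none of the 36 could be tested. A change in their dosage was not detectable at this depth.

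The 2 genes under the unadjusted value were Gm42418 and Cst3. Gm42418 was lower in Dp(10)2Yey, with a log2 fold change of -1.46 ± 0.38 (adjusted p = 0.147). It passed the threshold without Dp 1 (-1.72; adjusted p = 0.00189), without Dp 2 (-1.27; adjusted p = 1.3e-05) and with barcodes over 30% globin (-1.75; adjusted p = 1.05e-04), and in no other setting. The first 2 of these leave Dp(10)2Yey with 1 library. Without WT 1 and without WT 2 the adjusted p was 0.996 and 0.387, with RLE size factors 0.146, with DESeq2 0.0329 and with the replicate block 0.0520, or 0.907 with the numbers crossed. Its share of UMIs other than globin was lower by a difference of -14.9 points, with p = 0.33 (exact permutation test, n = 2 a group), and both Dp(10)2Yey libraries lay below both WT libraries. In other barcodes the share was also lower, at 1.15% and 0.782% against 1.65% and 1.95%, the same order of genotypes as in red blood cell barcodes. The mitochondrial share of red blood cell barcodes moved the same way, with a difference of -5.82 points (p = 0.33, exact permutation test, n = 2 a group). Without WT 1 that difference was -1.12 points. Cst3 was at 602, 7241, 11036 and 19190 CPM and a log2 fold change of 1.63 ± 0.69 (adjusted p = 0.952). The change was 4.73 without WT 2, 0.91 without WT 1 and 0.75 with the threshold at 30%, and it passed in no setting. The adjusted p was lowest with the replicate block, at 0.0473, and 0.907 with the numbers crossed. It is a gene of the microglial list, and its UMIs lay in 59 barcodes. Whether microglial RNA had a part in that difference was not tested.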

How the data were processed

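RNA was measured in 4 libraries, 1 mouse each, by droplet sequencing. The deposited values are UMI counts: per the labels, the authors made them with Cell Ranger 3.0.2 on a custom mm10 reference, and each file lists the barcodes called cells for 31055 genes. Barcodes with over 50% of UMIs from 4 globins were taken with no other filter. The members and gene lists were chosen with earlier results of these data known. UMIs were summed per library and class, globins removed. edgeR 4.0.16 (TMM, filterByExpr, quasi-likelihood, Benjamini-Hochberg, threshold 0.01) ran in R 4.3.3, with library as a block between classes. Shares were compared by exact permutation tests (Python 3.11.15, NumPy 2.4.6, SciPy 1.17.1), and plots made with matplotlib 3.10.9. The code was tested on simulated data, where TMM understated fold changes between the classes more than RLE or total scaling did. Named genes were list genes with a UMI, the 10 with most UMIs, the 15 with the largest change each way in all 4 libraries, and the 3 leading genes of each marker list. Alternatives were DESeq2 1.42.0, RLE and total scaling, no filter on low counts, an adjusted threshold of 0.05, other globin thresholds (30% and 80%), splits at 200 genes, no block, other barcodes under 1500 UMIs, thinned counts and leaving out each library. Total scaling with a library left out or with fewer than 200 genes, the split under 200 genes, other barcodes at most 10% globin and the crossed block were chosen after seeing the data. Reference positions are from GENCODE, build GRCm38, and promoters from RefSeq. Tent5c was matched by its older symbol Fam46c, and Ahsp is not in the files.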

Additional observations from a re-analysis of the deposited data

How the results depend on the processing

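The count of genes that differed between red blood cell and other barcodes was 107. It was 174 at an adjusted p under 0.05, 218 with the threshold at 30%, 7 with 200 or more genes, 165 with RLE size factors, 52 with no filter on low counts, 39 with thinned counts, where 59 genes could be tested, 273 with total scaling and under 200 genes, and 56 with total scaling and Dp 2 left out. Leaving out 1 library gave 58 to 86. No gene was called in the opposite direction in any of these. Of 980 refitted values of 49 named genes, 759 kept their direction and side of the threshold, 218 kept the direction alone and 3 reversed. With 200 or more genes, the TMM-fitted changes were -0.36 for Gm42418, -0.37 for Ftl1 and -0.48 for AY036118, while the Gm42418 share stayed 6.34 points above that of other barcodes. Between genotypes the count of 0 genes became 1 with the threshold at 30% and 0 to 1 with 1 library left out, and stayed 0 in the paired fit with a replicate block.

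The difference in beta chain share between genotypes ran from -0.487 to 2.38 points over the libraries left out, and that in the share of barcodes from 0.0423 to 4.57 points, keeping its sign. Against other barcodes, the beta chain share was -3.84 to -2.86 points over the libraries left out but 2.08 points when those were limited to at most 10% globin, a setting chosen after seeing the data. The Hbb-bt share was -1.24 points with the threshold at 30%, and the Hba-a1 share 0.352 points with 200 or more genes. The cause was not tested for any of these. Where 1 library was left alone in a group, it was assumed to vary like the others. Depth was a limit: 40712 UMIs other than globin, of which 1660 were in WT 1, left 66 genes to test between genotypes.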
